A study of Mus musculus with 6 samples.

Results

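The data described here are the transcriptomes of 4T1 mouse mammary carcinoma cells that carried the control hairpin shRenilla. These are the libraries shRenilla A and shRenilla B, 2 of the 6 samples in the study, and they were chosen by their labels alone, with no measured value. The study infected 4T1 cells with short hairpin RNAs against Asns, the gene of asparagine synthetase (shAsns-1 and shAsns-2), or with shRenilla, which is directed at a luciferase of the sea pansy and has no target of its own in a mouse cell. The shAsns libraries were not used here. All cells, controls included, had been infected with an shRNA vector and grown in DMEM with non-essential amino acids, a supplement that includes asparagine, so the values describe infected cells in culture and not untouched cells or tumours. The deposited table is named for 4T1_T, a subline that the sources used here do not describe further. Whether the libraries A and B came from separate cultures, infections or clones is not stated. A spread between them therefore measures only how far these libraries lie apart, and with 1 group of 2 libraries no test between conditions was made.

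4T1 is a line from a mammary tumour of a BALB/c mouse and is widely used because it spreads from the mammary fat pad to distant organs. A mammary duct has an inner luminal layer, with keratins of simple epithelium such as Krt8 and Krt18, and an outer basal layer of contractile cells with keratins such as Krt5 and Krt14. Carcinoma cells can keep epithelial junction proteins such as E-cadherin and still make vimentin, the intermediate filament of mesenchymal cells, a mixed state often described for invasive lines.

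The genes used as markers of the line were all well above the level of 1 CPM in each library. Levels are given as CPM (reads per 1000000 gene reads) for 1 gene, or, to compare genes, as TPM (reads per kilobase of exon, scaled to a sum of 1000000), in the order A and B. Krt18 (chr15:102028180-102032027, GRCm38) stood at 853 and 900.2 TPM and Krt8 (chr15:101996698-102004482) at 486 and 473, and these keratins pair to form the filament of simple epithelia. Cdh1 (chr8:106603351-106670246), which encodes E-cadherin, stood at 401 and 363 TPM. Epcam (chr17:87635979-87651129), an adhesion molecule of epithelial cells, stood at 104 and 104 TPM. Vim (chr2:13573927-13582826), vimentin, was the highest of the 5 at 2959.6 and 3054 TPM and ranked 20 among the 18987 genes ranked by mean TPM (small RNAs, pseudogenes and predicted models left out), with Krt18 at rank 119, Krt8 at 282, Cdh1 at 372 and Epcam at 2005. As mean and SD (n = 2) these levels were 3007 ± 66.5 TPM for Vim, 877 ± 33.2 for Krt18, 479 ± 8.86 for Krt8, 382 ± 26.8 for Cdh1 and 104 ± 0.430 for Epcam. Epithelial and mesenchymal markers were thus both present under the label of mammary carcinoma cells. In a bulk library a gene made by fewer cells and a gene with less RNA per cell cannot be told apart, so it was not measured whether the same cells made both kinds of marker.

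**Figure D1:**
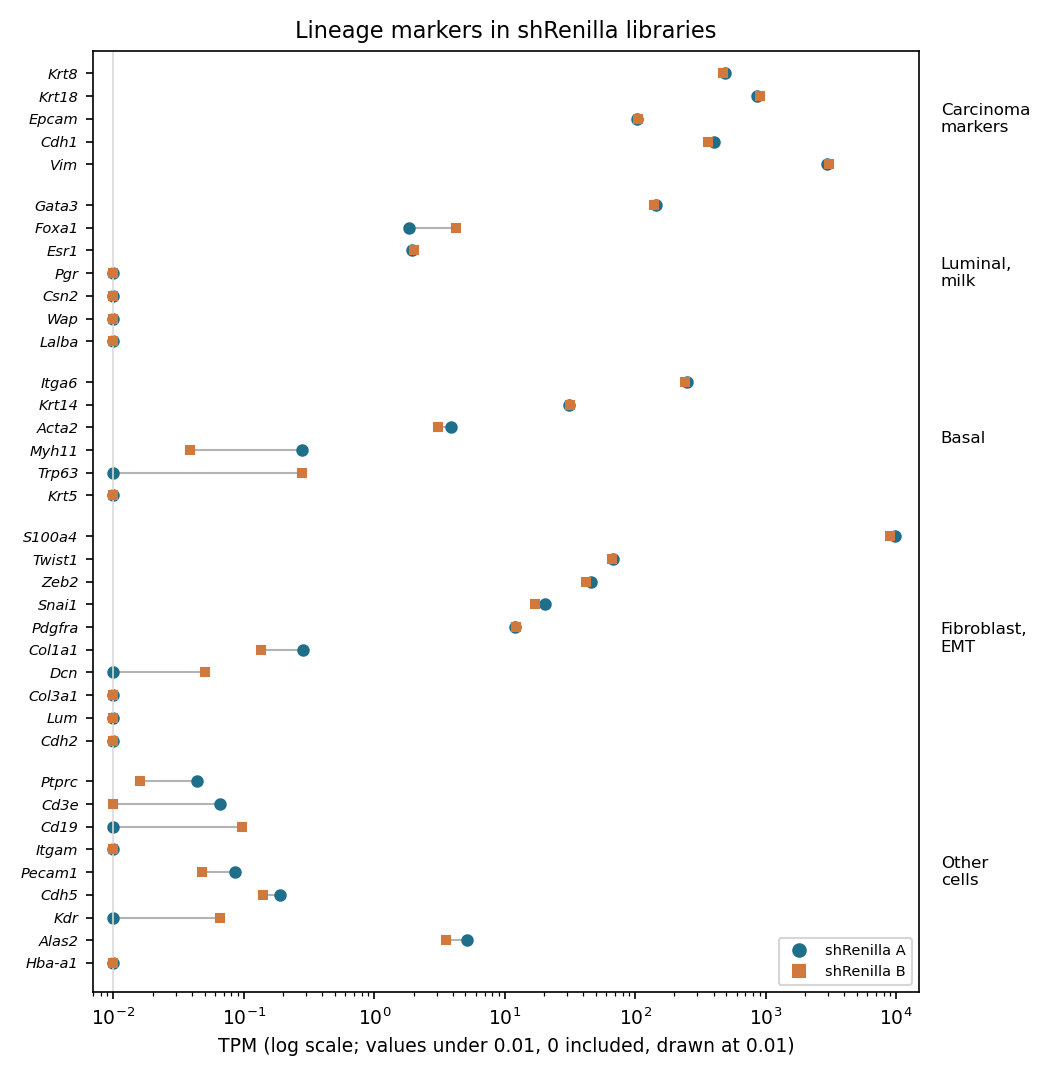
TPM on a log scale of lineage markers in shRenilla A (circles) and shRenilla B (squares), grouped by the cell type they mark, with values under 0.01 drawn at 0.01. The carcinoma markers lie between 104 TPM (Epcam) and 3007 TPM (Vim), whereas Csn2, Wap, Lalba, Krt5 and Ptprc, Itgam, Pecam1, Cdh5 and Kdr lie at or near 0.

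The promoters of 5 genes are shown because they span the range of the levels described here. Each runs from 250 bases before to 50 bases after the annotated start (RefSeq, GRCm38.p6), 5′ to 3′ on the gene's strand, with the dinucleotide CG and the motif TATAAA in capitals. S100a4 had the highest TPM once microRNAs, small nucleolar RNAs, pseudogenes and predicted models were left out of the ranking, Krt18 and Twist1 were expressed, and Csn2 (beta-casein) and Twist2 had 0 reads in both libraries.
S100a4 (chr3:90603520-90603819, plus strand): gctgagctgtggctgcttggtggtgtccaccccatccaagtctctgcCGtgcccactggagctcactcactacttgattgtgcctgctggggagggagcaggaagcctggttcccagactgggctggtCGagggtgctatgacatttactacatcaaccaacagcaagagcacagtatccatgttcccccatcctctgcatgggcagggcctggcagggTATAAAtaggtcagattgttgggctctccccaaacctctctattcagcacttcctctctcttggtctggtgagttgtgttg
Krt18 (chr15:102027966-102028265, plus strand): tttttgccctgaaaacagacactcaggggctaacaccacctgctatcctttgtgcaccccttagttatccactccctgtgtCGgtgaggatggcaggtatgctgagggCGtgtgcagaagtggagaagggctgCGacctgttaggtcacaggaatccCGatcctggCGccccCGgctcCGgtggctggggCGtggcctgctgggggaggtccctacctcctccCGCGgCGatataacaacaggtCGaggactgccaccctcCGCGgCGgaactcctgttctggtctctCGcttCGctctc
Csn2 (chr5:87699376-87699675, minus strand): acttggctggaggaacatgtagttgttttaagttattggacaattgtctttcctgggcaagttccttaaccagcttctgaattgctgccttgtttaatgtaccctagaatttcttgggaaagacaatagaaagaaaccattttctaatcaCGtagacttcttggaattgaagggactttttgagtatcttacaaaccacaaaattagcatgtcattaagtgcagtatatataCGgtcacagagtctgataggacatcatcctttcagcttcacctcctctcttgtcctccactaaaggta
Twist1 (chr12:33957421-33957720, plus strand): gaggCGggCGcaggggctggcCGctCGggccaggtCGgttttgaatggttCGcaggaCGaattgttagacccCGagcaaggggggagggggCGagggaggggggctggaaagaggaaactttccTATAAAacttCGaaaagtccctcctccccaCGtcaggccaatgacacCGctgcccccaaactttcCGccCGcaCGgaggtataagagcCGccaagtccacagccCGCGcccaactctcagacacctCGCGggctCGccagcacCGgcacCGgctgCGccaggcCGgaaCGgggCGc
Twist2 (chr1:91801211-91801510, plus strand): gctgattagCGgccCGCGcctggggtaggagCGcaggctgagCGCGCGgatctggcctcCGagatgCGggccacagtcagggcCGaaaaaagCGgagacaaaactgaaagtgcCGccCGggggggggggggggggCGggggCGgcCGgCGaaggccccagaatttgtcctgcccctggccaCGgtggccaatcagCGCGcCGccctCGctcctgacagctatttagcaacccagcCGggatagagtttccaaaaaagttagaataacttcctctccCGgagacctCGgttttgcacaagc

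The S100a4 promoter held 2 CG and a TATAAA that begins at position -31, counted from the base before the start as -1. Csn2 held 2 CG as well, Krt18 held 17, Twist1 27 and Twist2 25. The number of CG therefore did not separate Twist1 from Twist2, its silent paralog, nor S100a4 from Csn2. Over all 13353 protein-coding genes with 1 promoter in the table, CG content went with being expressed. A promoter was counted as CpG-rich when at least 50% of its bases were G or C and it held at least 0.6 times the CG expected from them. Of the 6360 genes with such a promoter, 5211 (81.9%) were expressed and 548 (8.62%) had 0 reads in both libraries. Of the 6993 genes with another promoter, 1678 (24.0%) were expressed and 3585 (51.3%) had 0 reads. TATAAA, searched on both strands, was found in 443 of 6889 promoters of expressed genes (6.43%), in 1049 of 4133 promoters of genes with 0 reads (25.4%) and in 13.7% of all. Of these 13353 genes, 54 had a mean of at least 1000 TPM, out of 101 genes of the whole table at that level. Among the 54, TATAAA was found in 9 (16.7%), with 41 CpG-rich (75.9%). Counted only between positions -45 and -16, TATAAA was found in 83 promoters of expressed genes (1.20%) and in 249 of genes with 0 reads (6.02%). There it was found in 3 of the 54 (5.56%) and in 3.24% of all. Of 921 olfactory receptor promoters, 0 were CpG-rich and 378 held TATAAA anywhere (41.0%). As 94.8% of olfactory receptor genes had 0 reads, this large family is part of the shares given for genes with 0 reads. The median GC content was 61.7% for promoters of expressed genes, 47% for those with 0 reads and 35% for olfactory receptors. Its part in these shares was not tested. These are descriptions of the letters in each promoter and do not show which factors bind there.

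The libraries held 15955168 (A) and 14287190 (B) reads assigned to genes. A gene was called expressed at 1 CPM or more in both libraries. By that rule 11452 of 23481 genes were expressed (48.8%), and 7354 had 0 reads in both (31.3%). A further count of 10027 genes, those with 0 reads among them, had at most 3 reads in each library. That floor corresponds to 0.188 CPM in A and 0.210 in B, and a gene at 0 reads could lie at up to that level, counting error only. Of protein-coding genes, 10919 of 20394 were expressed (53.5%). Most members of the gene lists below are protein-coding, so their shares are to be read beside 53.5% as well as 48.8%. The reads were spread over many genes, since the 10 genes with most reads took 6.70% and 6.52% of them, the 100 with most took 19.5% and 19.3%, and the 1000 with most 53.4% and 52.8%. Mean levels of at least 1000 TPM were reached by 101 genes, of at least 100 by 2202 and of at least 10 by 8746.

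The highest levels per length belonged to small calcium-binding proteins, a galectin, chaperones and the translation machinery. S100a4 (chr3:90603771-90606045), an S100 protein named for its link with fibroblasts and metastasis, led with 9779 and 8958 TPM. S100a11 stood at 5449.9 and 6952 and S100a6 at 5318 and 5188 TPM, and S100a10, the partner of annexin A2, at 1268 and 1258. Of the 17 S100 genes listed, 8 were expressed, with a summed level of 21927 and 22463 TPM. Lgals1 (chr15:78926725-78930465), the secreted lectin galectin-1, came after S100a4 at 7356 and 9667 TPM, higher in B by a ratio of 1.33 (1.30 to 1.35). Brackets after a ratio of B to A give its 95% Clopper-Pearson interval, which covers counting error only.

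Chaperones made up 5 of the 25 genes with the highest mean TPM. Hsp90ab1, a cytosolic HSP90, stood at 6698 and 6453 TPM and its partner isoform Hsp90aa1 at 2461 and 2858. Hspa5, the HSP70 of the endoplasmic reticulum, stood at 2978 and 2591 and the mitochondrial Hspd1 at 2666 and 2348. Npm1, a histone and ribosome chaperone of the nucleolus, stood at 3622 and 3959. The translation genes among the 25 were the elongation factor Eef1a1 (6053 and 6353), the poly(A)-binding protein Pabpc1 (3262 and 3269) and the ribosomal proteins Rpl4 (3942 and 4367), Rpl41 (3595 and 2934) and Rps15 (2619.6 and 2528). Of 80 cytosolic ribosomal protein genes 74 were expressed, with a summed level of 44668 and 43725 TPM. Their many processed copies make single levels uncertain.

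The other genes among the 25 serve varied basic roles. B2m, the light chain of MHC class I, stood at 6255 and 6433 TPM. The signalling adaptors of the 14-3-3 family Ywhaz and Ywhae stood at 5283 and 5244 and at 4031 and 4418 TPM, Actb (cytoplasmic actin) at 5019 and 4611, and Fth1, the ferritin heavy chain that stores iron, at 2978 and 3151. Ldha, the enzyme that turns pyruvate to lactate, stood at 3294 and 3384 TPM and the ATP synthase subunit Atp5b at 3723 and 3454. Ptma and Anp32b, small acidic proteins of the nucleus, stood at 3872 and 3585 and at 2923 and 2562 TPM. Malat1, a long nuclear RNA that encodes no protein, was the gene with most reads after the ribosomal RNA precursor Rn45s. It stood at 6951 and 4574 TPM and 11407 and 7572 CPM, and Rn45s at 20537 and 24239. The genes with most reads also included Ncl (nucleolin, 5741 and 5185 CPM), Ahnak (a giant scaffold protein, 3913 and 2775), Mki67 (the proliferation antigen Ki-67, 2680.3 and 2539.7) and Ccnd1 (cyclin D1, 2716 and 2580.3).

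Luminal genes were expressed more often than genes of the hormone-sensing or milk-producing state. Of 25 genes of simple and luminal epithelium 20 were expressed (80.0%, against 48.8% of all genes), and 0 were silent in both. Cd24a, a surface glycoprotein of epithelial cells, led the list at 1332 and 1257 TPM. Krt19 and Krt7 stood at 57.7 and 68.6 and at 62.3 and 63.4 TPM. Cldn3, a tight junction claudin, stood at 60.4 and 56.3, while Cldn7 (4.38 and 7.73) was lower and Cldn4 had 82 and 75 reads. The splicing regulators of epithelial cells Esrp2 and Esrp1 had 385 and 305 and 244 and 234 reads, and Grhl2, a transcription factor of epithelia, had 465 and 394. Rab25 (5 and 1 reads) and Ehf (1 and 0) were at the bottom of the list.

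Of 22 genes of hormone-sensing and milk-producing luminal cells 6 were expressed (27.3%) and 10 had 0 reads in both libraries (45.5%). Areg, an EGF receptor ligand that oestrogen induces in the gland, stood at 308 and 273 TPM, and Gata3, the factor that maintains luminal cells, at 145 and 140.4. The oestrogen receptor Esr1 had 100 and 94 reads, or 1.95 and 2.03 TPM. The progesterone receptor Pgr, the prolactin receptor Prlr and the milk genes Csn2, Csn1s1, Csn1s2a, Wap and Lalba had 0 reads in both. Csn3, kappa-casein, was the exception among the caseins with 55 and 46 reads. Foxa1, the pioneer factor that opens chromatin for the oestrogen receptor, had 23 and 48 reads, a ratio of 2.33 (1.39 to 4.01). Erbb2, the receptor HER2, stood at 30.7 and 28.6 TPM.

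The basal list was split. Of its 22 genes 13 were expressed (59.1%), and the 8 highest were mostly genes of adhesion to the basement membrane and not of contraction. Procr, the protein C receptor found on mammary stem cells, stood at 319 and 261 TPM. Itga6 stood at 249 and 239 and its hemidesmosome partner Itgb4 at 40.6 and 38.2. The laminin chains Lamb3 and Lama3 stood at 29.4 and 28.1 and at 12.5 and 11.3 TPM. Krt14 stood at 31.1 and 31.6 TPM, whereas its usual partner Krt5 had 0 reads in both libraries, as did Krt6a and Krt6b. Trp63, the master regulator of the basal layer, had 0 reads in A and 8 in B. Of the contractile genes, Mylk (95 and 104 reads), Tagln (43 and 32) and Acta2 (32 and 23) were expressed at low levels, while Myh11 had 8 and 1 reads and Cnn1 1 and 2.

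Mesenchymal genes were present in part. Of 31 genes 15 were expressed (48.4%, close to the 48.8% of all genes), so the list as a whole did not stand out, but a few of its members were among the highest of the transcriptome. Besides S100a4 and Vim these were Fn1 (fibronectin, 782 and 707 TPM), Cd44 (the hyaluronan receptor, 629.7 and 634) and Sparc (a matrix-binding glycoprotein, 241 and 254). Several genes known from fibroblasts were at or near 0. Col1a2, Col3a1, Lum, Thy1 and Lox had 0 reads in both, Col1a1 had 7 and 3, Dcn 0 and 1 and Postn 4 and 0. Other fibroblast and matrix genes of the list were expressed, among them Col5a1 at 28.6 and 26.7 TPM, Tnc (tenascin-C) at 24.9 and 20.8, Col6a1 at 22.8 and 22.0 and Pdgfra at 12.1 and 12.1.

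The transcription factors that drive the epithelial-to-mesenchymal transition differed widely in level. Of 10 regulators 6 were expressed. Twist1 stood at 67.8 and 66.2 TPM and Foxc2 at 46.6 and 56.0, and Zeb2 at 46.0 and 42.0. Snai1 had 124 and 94 reads (20.4 and 17.1 TPM). Zeb1 passed the 1 CPM rule at a lower level, with 41 and 29 reads. Snai2 had 1 and 0 reads, the homeobox gene Prrx1 4 and 2 and Twist2 0 in both. Cdh2, the N-cadherin that often replaces E-cadherin in this transition, had 0 reads in both libraries. Of 23 cadherin genes 4 were expressed (17.4%, against 48.8% of all genes).

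Most markers of other cell types were at or near the floor. Of 19 leukocyte genes 0 were expressed, and all of them together had 37 and 23 reads. Ptprc, the pan-leukocyte CD45, had 3 and 1 reads and the myeloid marker Itgam 0 in both. Of 8 hepatocyte genes 0 were expressed, with 4 and 0 reads in all, and of 12 genes of muscle and adipocytes 0, with 17 and 19. Of 13 endothelial genes 3 were expressed, namely Flt1, Egfl7 (45 and 37 reads) and Tie1 (34 and 36), and the defining genes Pecam1, Cdh5 and Kdr had 2 and 1, 3 and 2 and 0 and 2 reads. Flt1, a VEGF receptor, was at 13.2 and 14.7 TPM. Of 8 erythroid genes Alas2, the heme synthesis enzyme of red cell precursors, was expressed with 46 and 29 reads, while Hba-a1, Hba-a2, Hbb-b1 and Hbb-b2 had 0 in both. Mbp, a myelin protein gene that also gives other transcripts, had 351 and 276 reads and was the 1 expressed gene of 12 neural genes. Sycp3, of the meiotic chromosome axis, was the 1 expressed gene of 10 of germ and pluripotent cells, with 36 and 25 reads. Xist, the RNA that coats the inactive X chromosome of female cells, had 4 and 2 reads, and the Y-linked genes Ddx3y, Kdm5d, Eif2s3y and Uty had 0 in both. Hprt on the X chromosome stood at 341 and 334 TPM.

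**Figure D2:**
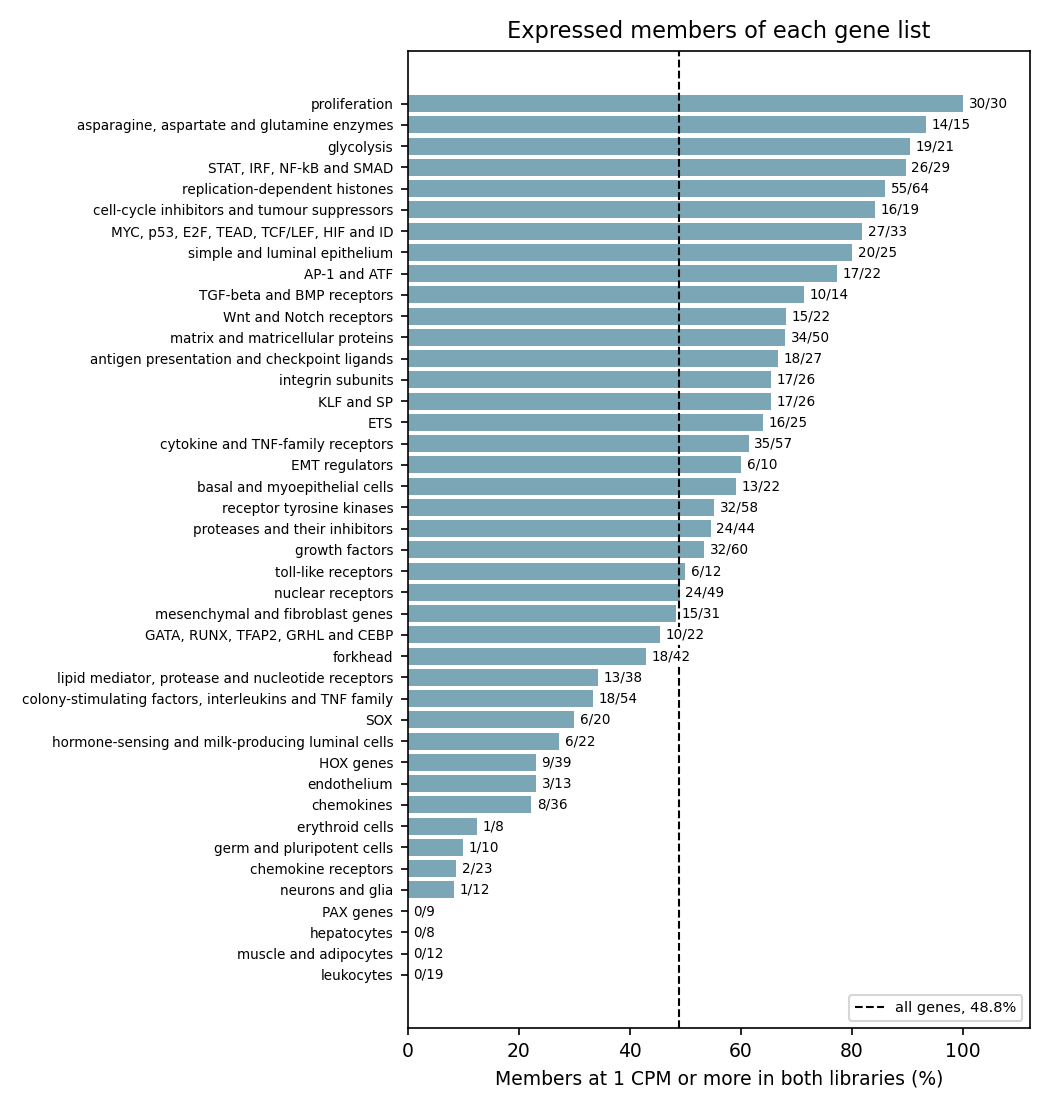
Share of the members of each gene list that were expressed (1 CPM or more in both libraries), with the number expressed and found beside each bar and the share of all genes as a dashed line. The shares run from 0 of 19 leukocyte genes to 30 of 30 proliferation genes, against 48.8% of all genes.

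Among receptor tyrosine kinases Axl was the highest. Of 58 such genes 32 were expressed (55.2%, against 48.8% of all genes and 53.5% of protein-coding genes), so the list as a whole did not stand out. Axl, a receptor linked with invasion, stood at 863 and 858 TPM, 860.3 on average, and the next, the ephrin receptor Epha2, at 181 and 163. Met, the receptor of hepatocyte growth factor, stood at 164 and 159.9 TPM. Ryk, a Wnt co-receptor, stood at 98.3 and 109, Ddr2, which binds collagen, at 93.7 and 84.0, and Ephb4 at 80.8 and 78.1. The insulin-like growth factor receptor Igf1r stood at 55.8 and 50.3 and Insr at 46.1 and 43.2. Of the EGF receptor family, Erbb2 stood at 30.7 and 28.6 TPM, while Egfr had 41 and 34 reads, Erbb3 16 and 20 and Erbb4 0 in both, these 3 under 1 TPM on average.

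Receptors of inflammatory signals were mixed. Of 57 cytokine and TNF-family receptors 35 were expressed (61.4%, against 48.8% of all genes and 53.5% of protein-coding genes). Tnfrsf12a, the receptor of TWEAK, led at 207 and 255 TPM. Ghr, the growth hormone receptor, stood at 78.1 and 80.1, the death receptor Tnfrsf10b at 68.4 and 76.8 and Il6st, the shared gp130 chain of the IL-6 family, at 68.9 and 72.3. The interferon receptor chains Ifngr1, Ifngr2, Ifnar1 and Ifnar2 lay between 30.2 and 41.3 TPM on average. Of 23 chemokine receptors 2 were expressed, the scavenger receptor Cxcr7 (now Ackr3, 32.0 and 29.2 TPM) and Cxcr3 (78 and 89 reads), and 9 had 0 reads in both. Of 12 toll-like receptors 6 were expressed, led by Tlr3 (39.9 and 41.6 TPM) and Tlr4 (32.2 and 33.5), while Tlr8, Tlr9, Tlr11, Tlr12 and Tlr13 had 0 reads.

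The thrombin and protease receptors were the highest G protein-coupled receptors on the lists. F2rl1, which trypsin-like proteases cleave, stood at 324 and 303 TPM and F2r, the thrombin receptor, at 284 and 304. The next on that list, the lysophosphatidic acid receptor Lpar1, stood at 25.4 and 28.2. Of 14 TGF-beta and BMP receptors 10 were expressed (71.4%, against 48.8% of all genes and 53.5% of protein-coding genes). Bmpr1a stood at 190 and 202, Bmpr2 at 127 and 125, Tgfbr1 at 118 and 109 and Tgfbr2 at 81.5 and 85.2 TPM. Of 22 Wnt, Notch and Hedgehog receptors 15 were expressed (68.2%). They were led by Fzd6 (133 and 141 TPM), Fzd7 (118 and 129) and the Hedgehog transducer Smo (98.5 and 103). Of 49 nuclear receptors 24 were expressed, a share of 49.0% that lies at the level of all genes. The retinoic acid receptor Rara (80.5 and 84.0 TPM) and the glucocorticoid receptor Nr3c1 (52.8 and 55.1) led them, and Pgr and Pparg had 0 reads in both.

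Of 26 integrin subunits 17 were expressed (65.4%). Itgb1, the beta chain shared by most matrix receptors, stood at 858 and 824 TPM, and its alpha partners Itga3, Itga6, Itgav and Itga2 at 552 and 531, 249 and 239, 128 and 128 and 81.4 and 80.8. The leukocyte integrin chains Itgam, Itgal and Itga4 had 0 reads in both, and Itgb2, the partner of Itgam and Itgal, had 188 and 182 reads.

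Secreted signals were led by a few ligands. Of 60 growth factor genes 32 were expressed (53.3%). Hdgf, a growth factor that is also a nuclear protein, stood at 984 and 1049 TPM and Cyr61, a matricellular YAP target, at 494 and 462. The EGF receptor ligands Areg (308 and 273 TPM), Hbegf (139 and 132) and Tgfa (129 and 144) were all among the 8 highest, with Angptl2 at 207 and 218 and Grn (progranulin) at 223 and 205. Inhba, the activin A subunit, stood at 142 and 118 TPM. Hgf, Igf2, Gas6, Bmp2, Fgf5, Fgf10 and Ereg had 0 reads in both.

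Of 54 colony-stimulating factors, interleukins and TNF ligands 18 were expressed (33.3%). Mif, a cytokine that most cells make, stood at 1009 and 916 TPM. Csf1, which sustains macrophages, stood at 301 and 288, Tslp, an epithelial cytokine that acts on dendritic cells, at 277 and 298, and Il24 at 231 and 258. Lif stood at 65.2 and 60.6 and Csf3, the granulocyte factor G-CSF, at 56.4 and 53.7 TPM, with 299 and 257 reads. Csf2, the related GM-CSF, had 4 and 13 reads, Il6 0 and 2, Tnf 4 and 2 and Il1b 1 and 0. Of 36 chemokine genes 8 were expressed (22.2%). Ccl2, which draws monocytes, stood at 73.6 and 68.0 TPM. The neutrophil chemokines Cxcl1 and Cxcl5 stood at 52.1 and 37.6 and at 42.4 and 34.4, and the transmembrane chemokines Cxcl16 and Cx3cl1 at 38.1 and 41.6 and at 21.7 and 20.9. Cxcl12, the stromal chemokine, had 0 and 1 reads.

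Of 44 proteases and their inhibitors 24 were expressed (54.5%, near the 48.8% of all genes), and a few were abundant. Ctsl, the lysosomal cysteine protease cathepsin L, stood at 1503 and 1353 TPM and Wfdc2, a secreted protein of the whey acidic protein family, at 1262 and 1088. The metalloprotease inhibitors Timp2 and Timp1 stood at 631 and 690.3 and at 349 and 330.2. Urokinase, Plau, stood at 308 and 259.6 and its receptor Plaur at 135 and 130.4 TPM. Slpi, an inhibitor of leukocyte elastase, stood at 228 and 203 and Serpine2, which inhibits thrombin and urokinase, at 75.5 and 81.2. Mmp3 (133 and 142 TPM) and the membrane-bound Mmp14 (62.9 and 63.8) led the metalloproteases, whereas Mmp9 had 189 and 201 reads, Mmp2 7 and 3, and Mmp7 and Mmp8 0 in both.

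Of 50 matrix genes 34 were expressed (68.0%). Spp1, osteopontin (chr5:104435118-104441050), stood at 1907 and 2699 TPM, higher in B by a ratio of 1.43 (1.39 to 1.46). Below Fn1 and Sparc came the basement membrane chains, with Lamc1 at 249 and 240.2, Lamb1 at 182 and 164, Col4a1 at 174 and 193 and Col4a2 at 178 and 174 TPM. Of the fibrillar collagens, Col1a1, Col1a2 and Col3a1 were at or near 0, as given above, and Col5a1 was expressed. Of all 44 collagen genes 14 were expressed, and Col8a1 had most reads of them (5965 and 5358).

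Ligands and receptors were compared in pairs. In 34 pairs of a ligand and a chain of its receptor, chosen after their values were seen, 17 had both expressed and 14 had the ligand but not that chain. These counts follow from the choice of pairs and are no shares of all ligands or receptors. For all genes, 48.8% were expressed. The 17 include Areg with Erbb2 and Erbb3, which are relatives of its receptor Egfr. They also include receptors under 1 TPM on average, namely Egfr (0.926), Erbb3 (0.845) and Lifr (0.967). Some ligands of the 14 other pairs have another chain that was expressed, such as Vegfa with Flt1 and not Kdr, and Hbegf with Egfr and not Erbb4. Csf1 stood at 294 TPM while its receptor Csf1r had 7 and 7 reads, Csf3 at 55.1 while Csf3r had 0 and 3, and Ccl2 at 70.8 while Ccr2 had 0 in both. Tslp binds a receptor of the chains Crlf2, with 27 and 28 reads, and Il7r, with 0 and 1. Il24 signals through Il20rb (32 and 24 reads) together with Il20ra or Il22ra1, which had 0 in both and 1 and 0 reads. Receptors without their ligand were Axl, whose ligand Gas6 had 0 reads, and Met, whose ligand Hgf had 0 reads. Pros1, a ligand of the Axl relatives Tyro3 and Mertk, stood at 17.1 and 16.8 TPM. Both sides were present for Inhba and Acvr2a (48.1 and 44.9 TPM), Jag1 and Notch2 (79.3 and 60.6), Pdgfa and Pdgfra, and Lif with Il6st, though the specific chain Lifr had 35 and 39 reads.

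**Figure D3:**
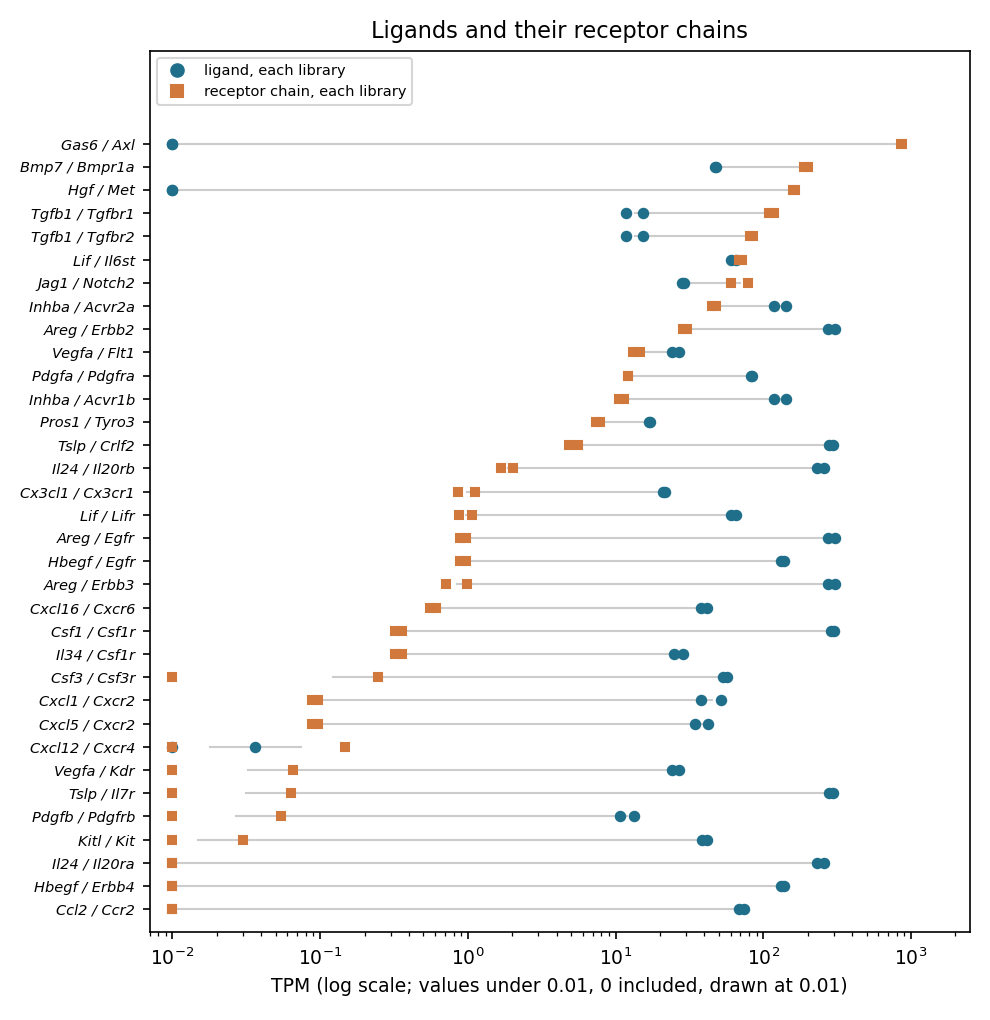
TPM on a log scale of 34 pairs of a ligand (circles) and a chain of its receptor (squares), 1 symbol per library. Pairs are ordered by the level of the receptor, with values under 0.01 drawn at 0.01, and some ligands appear in more than 1 pair. Gas6 and Hgf lie at 0 beside Axl (860.3 TPM) and Met (162 TPM), and Csf1 (294 TPM) lies beside Csf1r under 1 TPM. Tslp and Il24 each appear with a chain under 1 TPM (Il7r, Il20ra) and with a higher one (Crlf2 at 5.17 TPM, Il20rb at 1.86). Areg lies beside its receptor Egfr at 0.926 TPM, and beside the Egfr relatives Erbb2 (29.6) and Erbb3 (0.845).

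The transcription factors on the lists were led by regulators of growth. Myc stood at 915 and 968 TPM and Hmga2, an architectural chromatin protein of embryonic and tumour cells, at 814 and 886. E2f8, a repressor active in S phase, stood at 339 and 371, Hif1a at 269.7 and 295, and the Hippo pathway effectors Wwtr1 (TAZ), Tead1 and Yap1 at 258 and 281, 181 and 191 and 74.0 and 81.5 TPM. Of the 33 genes of that list 27 were expressed (81.8%, against 48.8% of all genes and 53.5% of protein-coding genes). Of 22 AP-1 and ATF genes 17 were expressed (77.3%). Atf4, the factor of the amino acid response, stood at 388 and 403 TPM. Jun stood at 184 and 182 and Fosl1 at 57.9 and 66.8 TPM, while Fos had 23 and 19 reads. Of 25 ETS genes 16 were expressed (64.0%), led by Elk3 (349 and 376 TPM), Gabpa (225 and 205) and Ets1 (200.2 and 170.5). The ETS factors of endothelium and blood Erg and Fli1 and the luminal factor Spdef had 0 reads in both. Klf6 (367 and 357 TPM) and Sp1 (154 and 152) led 17 expressed of 26 KLF and SP genes (65.4%).

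The families of lineage factors differed in how many members were on, beside the 48.8% of all genes. Of 20 SOX genes 6 were expressed (30.0%), and Sox9, a factor of mammary progenitors, stood at 161 and 167 TPM, above the next, Sox4 (27.7 and 33.1). Of 42 forkhead genes 18 were expressed (42.9%), with the mitotic factor Foxm1 at 199 and 195 TPM and Foxc1 at 38.3 and 41.5. Of 22 genes of the GATA, RUNX, TFAP2, GRHL and CEBP families 10 were expressed (45.5%). Tfap2a (98.5 and 111 TPM), Runx1 (102 and 107) and Runx2, the factor of bone (92.8 and 96.1), accompanied Gata3. Gata4, a factor of heart and gut, was also expressed with 220 and 196 reads. Stat6 (95.3 and 102 TPM) and Smad5 (95.5 and 95.9) led the STAT, IRF, NF-kB and SMAD genes, of which 26 of 29 were expressed. Of 9 PAX genes 0 were expressed, and together they had 16 and 13 reads.

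The HOX genes, which record position along the body axis and lie in 4 clusters, were on in a single cluster. Of the 39 HOX genes listed, 9 were expressed (23.1%, against 48.8% of all genes). All 9 belong to the 11 of the HoxA cluster on chromosome 6. Hoxa5 stood at 248 and 241 TPM, Hoxa2 at 75.1 and 72.7, Hoxa6 at 67.4 and 70.6 and Hoxa10 at 39.6 and 35.3. Hoxa3 and Hoxa7 stood at 17.5 and 18.4 and at 14.4 and 17.6 TPM, and Hoxa4 and Hoxa9 only just passed 1 CPM with 17 and 15 and 30 and 23 reads. At the far end of the cluster Hoxa11 had 0 reads in both and Hoxa13 1 and 0. Evx1, the homeobox gene beyond Hoxa13, had 0 reads in both. The levels did not follow the order of the genes along the cluster, since Hoxa4 lay far below its neighbours Hoxa3 and Hoxa5. The 10 genes of HoxB had 0 and 2 reads in all, the 9 of HoxC 4 and 1, and the 9 of HoxD 16 and 11. Neighbouring HOX genes overlap in the annotation, and whether the counting used strand is not given in the sources used here, so part of a low level can come from an overlapping transcript. Of HOX genes with 1 promoter in the table, CpG-rich promoters were found in 3 of the 6 expressed and in 4 of the 8 with 0 reads.

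**Figure D4:**
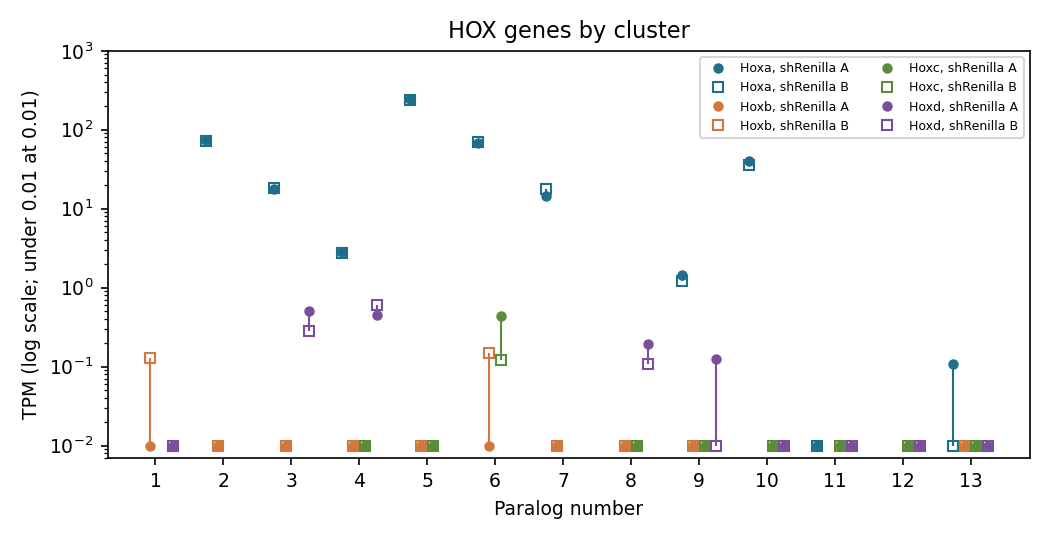
TPM on a log scale of HOX genes by paralog number (1 to 13) and cluster, with filled circles for shRenilla A and open squares for shRenilla B and values under 0.01 drawn at 0.01. The expressed genes drawn are all in the HoxA cluster, and the other 3 clusters stay under 1 TPM.

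Genes of cell division were on throughout. All 30 proliferation genes were expressed. Ccnd1 stood at 2454 and 2312 TPM, far above Ccnd2 (111 and 116) and Ccnd3 (8.91 and 9.09), while Ccne1, the cyclin of the G1-to-S step, was lowest of the list with 83 and 64 reads. Top2a (879 and 864 TPM) and Ccna2 (509 and 550) mark S and G2 phase. Of 19 cell-cycle inhibitors and tumour suppressors 16 were expressed, and the 3 that were not had 0 reads in both libraries: Cdkn2a, Cdkn2b and Cdkn1c. Trp53 stood at 68.2 and 72.5 TPM, its negative regulator Mdm2 at 117 and 127 and its target Cdkn1a at 27.5 and 33.4. These RNA levels do not show whether the cells make a working p53 protein, which was not tested. Cdkn2c, another inhibitor of CDK4 and CDK6, stood at 144 and 149.6 TPM.

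Cdkn2a and Cdkn2b lie beside one of the highest genes of the transcriptome. Mtap, the enzyme that salvages methionine from methylthioadenosine (chr4:89137122-89181081), had 22573 and 23323 reads, or 1866 and 2135 TPM, rank 35 of 18987. Cdkn2a (chr4:89274471-89294653), which encodes p16 and p19, and Cdkn2b (chr4:89306299-89311039), which encodes p15, are the next genes of the table along chromosome 4. Between the end of Mtap and the start of Caap1, over 5319 kilobases, it lists 9 genes with these included. All 9 had at most 3 reads in each library, as had 10027 of all 23481 genes. Of the 9, 6 had 0 reads in both, against 31.3% of all genes. Mtap and Caap1 are expressed and were chosen as ends after the values were seen. That choice fixed in advance that the genes between them were low. Several of the 9, such as the neuronal Elavl2, are known for expression in other tissues. On the far side Caap1 had 279 and 267 reads and Plaa 6062 and 4834, or 251 and 222 TPM. Read counts do not show whether the stretch between Mtap and Caap1 is present in the genome of these cells, and that was not tested.

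Metabolic genes were largely on. Of 21 glycolysis genes 19 were expressed (90.5%), with Pgam1 at 1455 and 1279.8, Pkm at 1118 and 1131 and the glucose carrier Slc2a1 at 269.7 and 279 TPM. Eno1 had only 47 and 49 reads, but its near-identical copy Eno1b, listed under the older symbol Gm5506, had 13794 and 14487 and was looked up after the value of Eno1 was seen. These copies share sequence, so neither level can be read alone. Of 15 enzymes and carriers of asparagine, aspartate and glutamine 14 were expressed. Glud1 stood at 623 and 597 TPM, the glutamine carrier Slc38a2 at 443 and 415 and Asns at 91.4 and 87.8, with Aspg at 3 and 2 reads. Ptgs2, the inducible cyclooxygenase that starts prostaglandin synthesis, stood at 973 and 989.8 TPM and was looked up after the lists were made.

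MHC class I was on and class II off. H2-D1 stood at 653 and 627 TPM and H2-K1 at 262 and 249, below B2m. The peptide transporter Tap1 had 41 and 48 reads and Tap2 52 and 67. H2-Aa had 0 reads in both, H2-Ab1 4 and 5 and the class II activator Ciita 2 and 4, while the invariant chain Cd74 had 115 and 130. Of the checkpoint ligands, Cd47, the signal against phagocytosis, stood at 139 and 149.7 TPM, Pvr at 78.7 and 106, Cd276 at 71.6 and 76.7, and Cd274 (PD-L1) had 82 and 84 reads. Cd80, Cd86 and Pdcd1lg2 had 0 reads in both. Class I genes are near-identical copies of one another, so their single levels are uncertain.

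Several large gene families of other tissues were silent or nearly so, and others were not. Of the 1122 olfactory receptor genes 1064 had 0 reads in both libraries (94.8%, against 31.3% of all genes), 2 were expressed, and all together had 146 and 127 reads. Of 335 vomeronasal receptors 0 were expressed and 306 had 0 reads. The 15 trace amine receptors, 18 alpha-defensins, 20 major urinary proteins and 10 hemoglobin chains had 0 reads throughout, and 42 of 43 beta-defensins and 47 of 52 keratin-associated proteins had 0 reads in both. Of 52 keratins 8 were expressed and 31 had 0 reads. Of the clustered protocadherins, cell adhesion molecules of neurons, 0 of 15 of the alpha cluster, 7 of 22 of the beta cluster and 1 of 22 of the gamma cluster were expressed. That 1 was Pcdhgc3 with 1188 and 1053 reads, while its neighbour Pcdhgc4 had 11 and 17. The other 21 gamma genes were not expressed, but 0 of the 22 had 0 reads in both. Among channels of nerve cells, 0 of 19 GABA-A receptor subunits, 5 of 19 glutamate receptor channels and 3 of 9 voltage-gated sodium channels were expressed. For all genes the expressed share was 48.8%.

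Single members of some other families were picked out after their values were seen. Of 26 genes of the prolactin family, most of them placental hormones, 6 were expressed, led by Prl2c2 (proliferin) at 269.6 and 215 TPM and Prl3d2 at 65.7 and 100.4, although the pituitary hormone's receptor Prlr was at 0. The copies of the Prl2c and Prl3d groups are alike in sequence, so the split among them is uncertain. Pramef8, of the PRAME family that testis and tumours use, had 367 and 336 reads, whereas the other 26 MAGE and PRAME genes had at most 1 read in a library. The reproductive homeobox gene Rhox5, on the X chromosome, had 85 and 66 reads and Rhox4a 84 and 84. Klrg2 had 261 and 276 reads among 37 lectin-like receptors of killer cells, of which 31 had 0. Cyp1b1, an enzyme that oxidises oestrogens and aryl hydrocarbons, had 930 and 773 reads, most among 83 cytochrome P450 genes, of which 7 were expressed. Wnt7b (45.9 and 48.7 TPM) led 5 expressed of 19 Wnt ligands.

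The control libraries were close but not equal. Among 11117 genes with at least 50 reads over the pair, 115 were at least 1.5-fold higher in B (1.03%) and 135 at least 1.5-fold higher in A (1.21%), and 97.8% lay within 1.5-fold. At 2-fold the counts were 17 and 7. The median log2 ratio of B to A was 0.02 and its SD 0.23. Across the 11452 expressed genes, Pearson's r of log2 CPM was 0.995 and Spearman's rho of CPM 0.996; this is a description across genes, which are not independent replicates. Sampling of reads does not account for the whole spread, since among the 1414 genes with at least 5000 reads the SD of the log2 ratio was 0.15, against 0.03 for counting alone. The libraries thus differed by more than sampling noise and were kept as 2 samples. Most differing genes were thinly covered, as 89 of the 115 and 112 of the 135 had under 200 reads.

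Histone genes stood out among those higher in B. Of the 64 replication-dependent histone genes, whose RNA cells make in S phase and mostly without a poly(A) tail, 54 had at least 50 reads, and 50 of these were higher in B (92.6%, against 54.3% of all genes). Their median log2 ratio was 0.36, against 0.02 for all genes, and 8 passed 1.5-fold in B and 0 in A, against 1.03% and 1.21% of all genes. Among the 12 genes named for the largest ratio in B, 5 were histones. Hist2h2bb stood at 6.71 and 12.5 CPM, a ratio of 1.86 (1.45 to 2.38). Hist1h2bg stood at 21.1 and 37.5 CPM, a ratio of 1.78 (1.55 to 2.04). Hist1h4i, Hist1h2ak and Hist1h2bn had ratios of 1.70, 1.62 and 1.60. Histone genes are near-identical copies, so single ratios are uncertain. The proliferation genes had a median log2 ratio of 0.09, with single values from -0.52 to 0.42. Of them 0 of 30 passed 1.5-fold either way, near the 2.25% of all genes that did. Whether the difference of the histones goes with the cell cycle was not tested.

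The other genes named for B serve different roles. They were Mis18a, which prepares centromeres for new CENP-A (1.67, interval 1.39 to 2.00), the membrane protein Evi2a (1.65, interval 1.40 to 1.94), the complex III subunit Uqcrb (1.62, interval 1.36 to 1.93), the chaperone subunit Pfdn4 (1.60, interval 1.45 to 1.78), the mitochondrial translation release factor Ict1 (1.59, interval 1.33 to 1.90), the mitochondrial protein Apool (1.58, interval 1.21 to 2.07) and Prl3d2 (1.54, interval 1.29 to 1.85). Pfdn4 had the most reads of these, 629 and 903. Lgals1, S100a11 and Spp1, among the most abundant genes, were also higher in B, by ratios of 1.33, 1.29 and 1.43, short of 1.5-fold.

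Among the genes named for A, which had at least 200 reads over the pair and were no predicted models, Pag1, a membrane adaptor of SRC kinases, came first with 165 and 77 reads (ratio of B to A 0.521, interval 0.392 to 0.687). Slc25a27, a mitochondrial carrier, had 207 and 99 reads (0.534, interval 0.416 to 0.682). Rmrp, the RNA of the RNase MRP complex, had 183 and 91 (0.555, interval 0.427 to 0.718). The best covered were Trmt61a, a tRNA methyltransferase subunit, with 2380 and 1367 reads (ratio 0.641), the nuclease Ankle1 with 1713 and 879 (0.573, interval 0.528 to 0.622) and Fam160b2 with 952 and 537 (0.630, interval 0.566 to 0.701). Nubpl, Vrk3, Eme2, Selm, Zfp341 and Fbxl12 had ratios of 0.594 to 0.643 at 133 to 191 reads in A and 75 to 110 in B. Malat1 stood at a ratio of 0.664 (0.659 to 0.669), past 1.5-fold, and Ahnak at 0.709, so some of the genes with most reads were higher in A as well.

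Transcript length moved with these ratios. Over 9239 genes with at least 200 reads and a length, the Spearman correlation of the log2 ratio with the longest transcript was -0.16 and with its GC content -0.05, given as a description across genes that share the 2 libraries. With these genes in 4 equal groups by length, the median log2 ratio was 0.06 in the shortest (median 1690 bases) and -0.02 in the longest (median 6577 bases). Rn45s was higher in B by a ratio of 1.18. The part of length and of ribosomal RNA in the differences of histones, Malat1 and Ahnak was not tested.

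**Figure D5:**
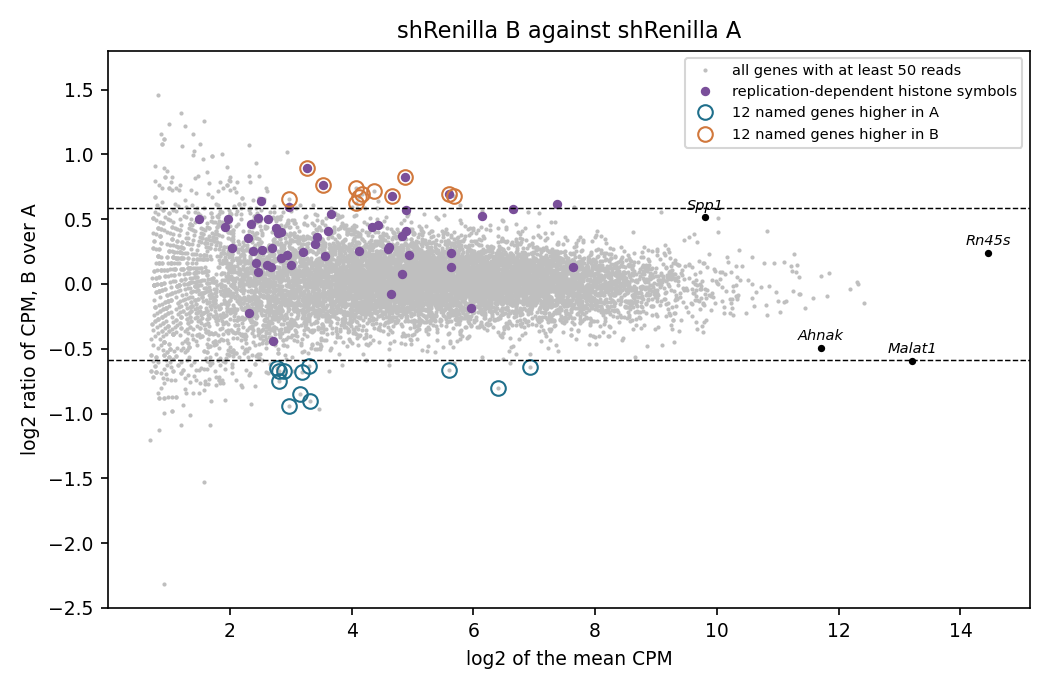
Log2 ratio of CPM (B over A) against log2 mean CPM for 11117 genes with at least 50 reads over the pair, with dashed lines at 1.5-fold, histone genes filled and the 12 named genes of each direction circled. Histones lie mostly above 0, and Malat1 (-0.59) and Ahnak (-0.50) lie below it at high CPM.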

How the data were processed

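The deposited table holds whole-number read counts per gene, made by the authors for 6 libraries. Per the labels' protocols, RNA was extracted with Trizol and libraries were made with Nugen Ovation RNAseq V2. Per the submitters' processing notes, Bowtie2, HTSeq and the build mm10 were used; which versions, gene annotation and strand option is not given in the sources used here. The 5 HTSeq tally rows stayed out of totals; reads in no feature were 38.2% and 36.1% of all reads in A and B, unaligned reads 17.9% and 19.1%. Rn45s took 2.05% and 2.42% of gene reads.

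From the counts, CPM and TPM were computed in Python 3.11.15 (pandas 2.3.3, scipy 1.17.1), with exon-union lengths from GENCODE vM21 (GRCm38): 21911 symbols matched, 1184 by an older symbol and 386 not. No test across genes was run, since 1 group was described; the spread between A and B (n = 2) may be technical. Promoters came from RefSeq (GRCm38.p6). Ratios of B to A carry exact binomial (Clopper-Pearson) intervals, checked on simulated counts that held counting error only. The check therefore does not cover the larger spread between A and B. TMM factors (edgeR 4.0.16, R 4.3.3) served as an alternative scaling. The 42 lists and 39 families were chosen with earlier results of these data known. Named were the 25 genes of highest TPM, the 15 of highest CPM, up to 8 leading members of a list with defining genes at 0, and the 12 largest ratios each way from 200 reads over the pair; predicted models, small RNAs and pseudogenes were counted but not named. Other named low members, pairs, family exceptions and neighbours were chosen after their values were seen. Some list members are not reported here.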

Additional observations from a re-analysis of the deposited data

How the results depend on the processing

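The number of expressed genes ran from 9628 at 5 CPM to 12062 at 0.5 CPM in each library, with 11763 at 1 TPM, 11434 with both libraries at the smaller total, and 11576 and 11660 from B or A alone, all within 1.5 times the 11452 reported. Of the 25 genes with the highest TPM, 22 were shared when the longest transcript gave the length, and 24 from either library alone. With microRNA and small nucleolar RNA genes kept, an alternative chosen after seeing the data, 24 were shared. With ribosomal RNA genes left out, the share of reads in the 10, 100 and 1000 genes with most reads was 4.78%, 17.7% and 52.0%. The number of genes that differ between the libraries depended on the read minimum and the fold: from 20 reads it was 231 higher in B and 322 higher in A, from 200 reads 26 and 23, and at 2-fold 17 and 7. With TMM factors it was 96 and 153, so the side with more genes was A in both scalings, but B from 200 reads and at 2-fold. Of the list members, 644 were expressed at 0.5 CPM and 613 at 1 TPM, against 603. Of 162 list counts at those thresholds 16 differed by over 1.5 times from the count reported. With the length of the longest transcript, 28 of 37 single TPM values moved by more than the SD, and their ratio to the value reported ran from 0.753 to 1.84 with a median of 0.921. With TMM factors the median log2 ratio of B to A was 0.34 for histones and 0.06 for proliferation genes. No paired analysis was possible because A and B belong to 1 group and no other group was compared. Depth limits genes at the floor: whether they are silent was not detectable below 0.188 CPM in A and 0.210 in B.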
